A study of Mus musculus with 5 samples.

Results

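The genes described here are those of creatine and phosphocreatine: the creatine kinases Ckb, Ckm, Ckmt1 and Ckmt2, the synthesis enzymes Gatm and Gamt, and the transporter Slc6a8. These 7 genes were taken by symbol from the 25414 genes of the deposited tables, and each was found. They were chosen by their pathway with their FPKM in both cell types already known, so the NSC and STO values below are a description and carry no test. RNA-seq was available for neural stem cells (NSCs) and for STO cells. The NSCs were primary cells from embryonic mouse cortex, grown as monocultures for 5 to 8 passages on poly-l-ornithine and laminin with EGF, bFGF, heparin and B27, with 2 replicates. The STO line, SIM embryonic fibroblasts resistant to thioguanine and ouabain, was kept in DMEM with fetal bovine serum for more than 30 passages and gave 3 replicates. Both are labelled C57BL/6 and neither was treated. The paper names SIM mice as the source of the STO line, so a shared strain is not certain. Cell type, medium and passage number changed together and cannot be told apart, and no label says that the replicates came from separate cultures.

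Creatine kinases move phosphate between ATP and creatine, so that phosphocreatine serves as a store and a carrier of phosphate close to where ATP is used. Cells obtain creatine by uptake through SLC6A8 or by synthesis, in which GATM joins arginine and glycine to guanidinoacetate and GAMT methylates it with S-adenosylmethionine. In brain, CKB is the main cytosolic kinase, and inherited loss of GATM, GAMT or SLC6A8 causes cerebral creatine deficiency.

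The values were FPKM, fragments per kilobase of transcript scaled to library size, which can be compared between genes. The confidence bounds deposited beside them implied 15223341 to 22271895 fragments per sample. All 6 NSC markers had a mean of at least 1 FPKM in NSCs and summed to 3811 to 4028 FPKM there, against 0.0442 to 0.0724 in STO cells, where Sox2, Pax6, Olig2 and Fabp7 were at 0. The 4 fibroblast markers summed to 1283 to 1397 FPKM in STO cells and to 4.0 to 4.25 in NSCs, where Col3a1 was at 0. NSCs also carried markers of other neural cells: the 4 astrocyte markers summed to 70.4 to 71.4 FPKM, the 4 oligodendrocyte markers to 123 to 127 and the 4 neuron markers to 115.1 in both replicates. In STO cells these sums were 0.242 to 0.432, 0.977 to 1.14 and 12.3 to 12.8 FPKM. Map2 made up most of the neuron sum, with means of 101 FPKM in NSCs and 4.31 in STO cells. Dcx had means of 4.71 and 0.0011, while Tubb3 was similar in both at 8.69 and 8.30. In NSCs the neuron marker Rbfox3 (0.515) and the oligodendrocyte marker Mog (0.541) had means under 1 FPKM. The markers of skeletal muscle, microglia and endothelium each summed to under 1 FPKM in every sample.

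Ckb set NSCs apart by its level. It stood at 2691 and 2599 FPKM in the NSC replicates, where it was number 4 of all 25414 genes in each and made up 0.608% and 0.582% of all FPKM. In the STO replicates it stood at 0.330, 0.209 and 0.335 FPKM, at ranks 11557, 11885 and 11562. Every NSC value therefore lay far above every STO value. The mean was 2645 ± 65.2 FPKM (SD, n = 2) in NSCs and 0.291 ± 0.0710 FPKM (SD, n = 3) in STO cells, which is 9079.8-fold lower. The implied fragments behind these values were 122618 and 129924 in NSCs and 11, 8 and 17 in STO cells, so the low STO values rest on few fragments. On the log2(FPKM + 1) scale the difference, STO minus NSC, was -11.00, and it was the second largest fall among the 12292 genes with a mean of at least 1 FPKM in either cell type. In bulk RNA, fewer cells with a transcript and less transcript per cell cannot be told apart. The astrocyte and oligodendrocyte markers were higher in the same samples, with the sums given above, and their part in the level of Ckb was not tested.

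Ckb lies on chromosome 12 at 112907566 to 112910549 in mm9, on the minus strand, with 8 exons in GENCODE M1, and no other gene in the tables overlaps it. The 250 bases before its RefSeq start, from GRCm38.p6, chr12:111672339-111672588 on the minus strand, are shown since Ckb had the largest difference of the 7 genes. Capitals mark the motifs searched on both strands: the TATA box letters TATAAA, the CAAT box letters CCAAT, the GC box letters GGGCGG and the E-box letters CANNTG.

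Ckb: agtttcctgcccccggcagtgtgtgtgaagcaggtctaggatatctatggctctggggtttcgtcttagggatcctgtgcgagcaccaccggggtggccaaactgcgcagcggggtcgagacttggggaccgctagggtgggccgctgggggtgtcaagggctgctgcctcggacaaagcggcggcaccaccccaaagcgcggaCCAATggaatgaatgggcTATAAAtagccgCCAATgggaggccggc

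The stretch held TATAAA from -28 to -23 relative to the start and CCAAT at -46 to -42 and at -16 to -12, and neither GGGCGG nor CANNTG. Among 32851 RefSeq promoters, TATAAA was found in 12.4%, CCAAT in 33.8%, GGGCGG in 32.7% and CANNTG in 66.2% of the same 250 bases. The ratio of observed to expected CpG was 0.67, against a median of 0.37 over all promoters. A match of letters is a description and not a binding site.

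**Figure D1:**
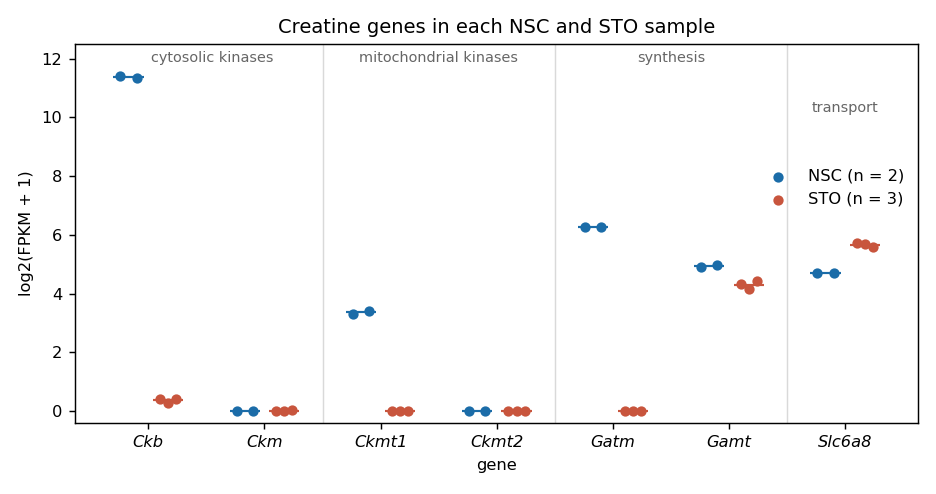
Level of the 7 creatine genes in each sample as log2(FPKM + 1) on the vertical axis; points are samples, blue for the 2 NSC and red for the 3 STO replicates, and the short lines are the means. Ckb, Ckmt1 and Gatm are near or at 0 in STO cells, Gamt and Slc6a8 are present in both, and Ckm and Ckmt2 are near 0 in all samples.

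Ckm, the cytosolic kinase of skeletal and heart muscle, was listed at 0 in both NSC replicates and in STO replicates 1 and 2. STO replicate 3 gave 0.0206 FPKM, which corresponded to 0.50 implied fragments, so the groups overlapped. None of the 6 skeletal muscle markers had a mean of 1 FPKM in either cell type. The coding sequences of Ckb and Ckm were both 1146 bases long and 75.8% identical, and their longest shared run was 20 bases. With Ckb at its NSC level, no FPKM was assigned to Ckm in either NSC replicate. The promoter of Ckm, chr7:19410844-19411093 on the plus strand of GRCm38.p6, is shown beside that of Ckb as the muscle counterpart that was near 0 throughout.

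Ckm: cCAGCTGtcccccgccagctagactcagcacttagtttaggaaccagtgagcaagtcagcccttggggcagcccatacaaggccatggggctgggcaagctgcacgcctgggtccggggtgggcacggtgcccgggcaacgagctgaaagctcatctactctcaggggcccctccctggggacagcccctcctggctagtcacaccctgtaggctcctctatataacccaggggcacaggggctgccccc

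It held CANNTG from -249 to -244, and none of the other motifs by exact letters. The letters tatataa near the end of the stretch differ from TATAAA and were not searched for. The CpG ratio of the Ckm stretch was 0.23, below that of Ckb.

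Ckmt1, the ubiquitous mitochondrial kinase, was present in NSCs and listed at 0 in STO cells. It stood at 8.98 and 9.64 FPKM in the NSC replicates and at 0 in all 3 STO replicates, so the groups did not overlap. The NSC mean was 9.31 ± 0.466 FPKM (SD, n = 2), with 371 and 424 implied fragments. No fold is given against a group at 0. Among 8711 genes with an NSC mean of at least 5 FPKM, 281 (3.23%) were listed at 0 in all 3 STO replicates. Of the 2 Ckmt1 transcripts in the tables, NM_009897 held all of the FPKM and NM_001355069 was at 0 in every sample. Over all genes, cases were counted where transcripts of 1 gene were listed with an identical locus and at least 1 was above 0. All FPKM sat on a single transcript in 52.1% of these cases. Which isoform is used therefore cannot be read from these values. Ckmt1 lies on chromosome 2 at 121183512 to 121189473 in mm9, and the Strc transcript that overlaps it was at 0 in all samples. Ckmt1 had 2 RefSeq starts, and neither was linked to a transcript here. The stretch before the downstream start, chr2:121358360-121358609 on the plus strand of GRCm38.p6, is shown.

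Ckmt1: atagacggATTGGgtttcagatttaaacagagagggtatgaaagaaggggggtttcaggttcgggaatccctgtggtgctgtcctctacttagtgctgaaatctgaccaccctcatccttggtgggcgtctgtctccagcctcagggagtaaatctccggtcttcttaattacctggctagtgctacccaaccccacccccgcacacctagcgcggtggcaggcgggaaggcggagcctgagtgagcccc

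It held CCAAT on the opposite strand from -242 to -238 and none of the other motifs, and its CpG ratio was 0.46. The stretch before the upstream start, which is not shown, held only TATAAA, on the opposite strand from -31 to -26. Its CpG ratio was 0.24.

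Ckmt2, the mitochondrial kinase of heart and skeletal muscle, was listed at 0 in all 5 samples. Its coding sequence was 71.6% identical to that of Ckmt1, with a longest shared run of 39 bases. Ckb made up 99.7% and 99.6% of the summed FPKM of the 4 kinases in the NSC replicates, and Ckmt1 the remaining 0.333% and 0.370%. Per length, Ckb was 299.5 and 269.5 times as abundant as Ckmt1 there. The 4 kinases together came to 2654 ± 64.7 FPKM (SD, n = 2) in NSCs and to 0.298 ± 0.0779 FPKM (SD, n = 3) in STO cells.

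The synthesis enzymes differed from each other. Gatm, which makes guanidinoacetate in mitochondria, stood at 76.6 and 75.1 FPKM in the NSC replicates and was listed at 0 in all 3 STO replicates. The NSC mean was 75.9 ± 1.04 FPKM (SD, n = 2), with 5605 and 5977 implied fragments, and the groups did not overlap. Of the 1604 genes with an NSC mean of at least 50 FPKM, 37 (2.31%) were at 0 in all STO replicates. None of 10 genes that every cell uses, among them Actb, Gapdh and Tbp, was at 0 in a sample. These genes were picked, so they do not show that a 0 listed for Gatm or Ckmt1 means no transcript. A 0 in these files remains a listed value. Gatm lies on chromosome 2 at 122420209 to 122437013 in mm9 on the minus strand, 1230735 bases beyond the end of Ckmt1. Its promoter, chr2:122611278-122611527 on the minus strand of GRCm38.p6, is shown because Gatm had the second largest fall of the 7 genes.

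Gatm: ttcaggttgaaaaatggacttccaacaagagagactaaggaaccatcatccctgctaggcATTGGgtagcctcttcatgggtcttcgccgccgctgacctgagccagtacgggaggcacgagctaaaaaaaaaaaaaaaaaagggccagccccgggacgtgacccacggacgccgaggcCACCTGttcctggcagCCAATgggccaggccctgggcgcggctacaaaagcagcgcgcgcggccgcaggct

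CCAAT was found from -55 to -51 and, on the opposite strand, from -190 to -186, and CANNTG from -71 to -66. TATAAA and GGGCGG were not found, and the CpG ratio was 0.78.

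Gamt, which methylates guanidinoacetate to creatine, was present in both cell types. It stood at 29.2 and 30.5 FPKM in NSCs and at 19.1, 16.9 and 20.5 FPKM in STO cells. Every NSC value was above every STO value, and the deposited intervals of the 2 cell types did not overlap either. The means were 29.9 ± 0.942 FPKM (SD, n = 2) and 18.8 ± 1.81 FPKM (SD, n = 3), a 1.59-fold difference. On the log2(FPKM + 1) scale the difference was -0.64. This was modest among all tested genes, since 55.2% of them differed by more. All FPKM of Gamt sat on NM_010255, and the other transcript of the same locus was at 0. The NSC replicates held 2.62 and 2.46 FPKM of Gatm for each FPKM of Gamt, whereas STO cells had Gamt at these levels with Gatm at 0.

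Slc6a8, the creatine transporter, ran the other way and was higher in STO cells. It stood at 24.7 and 24.9 FPKM in NSCs and at 52.0, 50.2 and 47.5 FPKM in STO cells, and the groups did not overlap. The means were 24.8 ± 0.0853 FPKM (SD, n = 2) and 49.9 ± 2.30 FPKM (SD, n = 3), which is 2.01-fold higher in STO cells and a difference of 0.98 on the log2(FPKM + 1) scale. In rank it was at 3303 and 3366 in NSCs and at 1497, 1521 and 1686 in STO cells. All FPKM of this gene sat on NM_001142809, 1 of its 3 transcripts. The implied fragments were 1323 and 1378 in NSCs and 1552, 1604 and 1716 in STO cells. NSC replicate 2 and STO replicate 3 had similar totals of implied fragments, 22271895 and 21952753. Between these samples the implied fragments of Slc6a8 differed less than its FPKM, for a reason that was not tested. Implied fragments were inferred from the width of the deposited bounds and are not read counts. They are therefore no second measure of the change of Slc6a8. Slc6a8 lies on the X chromosome at 70918472 to 70927839 in mm9. The median difference of the 410 tested genes on X was 0.0023, against -0.023 for all tested genes, a comparison that was chosen after the values were seen. For each FPKM of Gamt there were 0.847 and 0.814 FPKM of Slc6a8 in the NSC replicates and 2.73, 2.96 and 2.31 in the STO replicates.

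**Figure D2:**
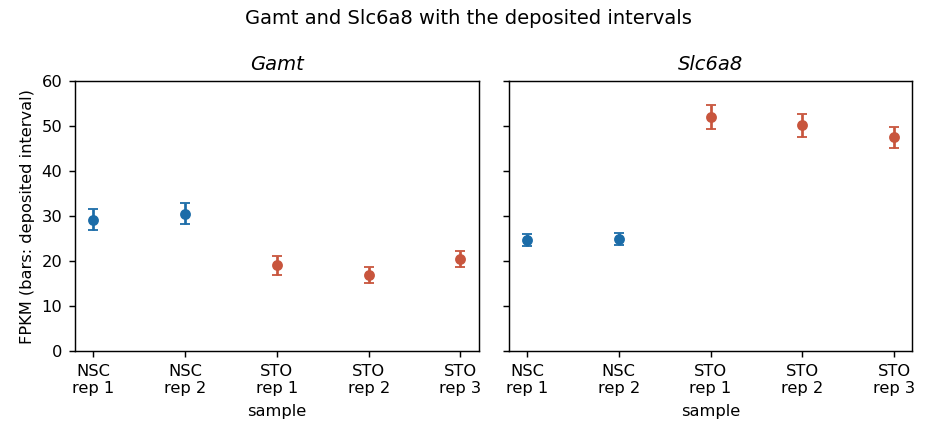
FPKM of Gamt and Slc6a8 in each sample on a linear axis from 0; points are the deposited values and bars the deposited confidence intervals, blue for NSC and red for STO. Gamt lies at 29.2 and 30.5 in NSCs and between 16.9 and 20.5 in STO cells, and Slc6a8 at 24.7 and 24.9 in NSCs and between 47.5 and 52.0 in STO cells.

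Within NSCs the order of the levels was Ckb, Gatm, Gamt, Slc6a8 and Ckmt1, with Ckm and Ckmt2 at 0, and the replicate values of neighbours in this order did not overlap. In STO cells the order was Slc6a8, Gamt and Ckb, and the values of these 3 genes did not overlap, while the other 4 were listed at 0 but for the trace of Ckm. Of the 7 genes, 5 were above 0 in every NSC replicate and 3 in every STO replicate. The ranges did not overlap for 5 genes, 4 with NSCs higher and 1 with STO cells higher. Among the 17724 genes above 0 in any sample, 78.4% did not overlap, 41.1% with NSCs higher and 37.3% with STO cells higher, so that ranges without overlap were common among all genes. A mean of at least 1 FPKM in either cell type was reached by 5 of the 7, and Ckb, Ckmt1 and Gatm reached it only through NSCs.

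**Figure D3:**
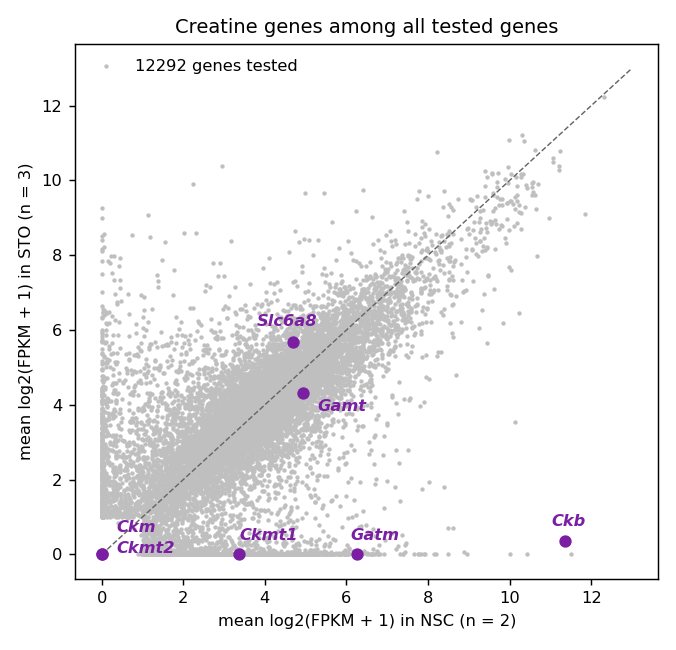
Mean log2(FPKM + 1) in STO cells against that in NSCs; grey points are the 12292 genes tested, purple points the 7 creatine genes, and the dashed line marks equal values. Ckb lies far to the right at the bottom, Gatm and Ckmt1 lie on the bottom edge, Ckm and Ckmt2 near the origin, and Gamt and Slc6a8 within the main cloud.

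The genes closest to Ckb and Gatm, the 2 genes with the highest average of the NSC and STO mean FPKM, were sought over the 5 samples by the root mean square difference in log2(FPKM + 1). For Ckb they were Fabp7, the brain fatty acid binding protein, at 0.31, Igfbp2, an IGF binding protein, at 0.67 and Olig1, a bHLH factor of the oligodendrocyte lineage, at 0.91. Fabp7 stood at 2783 and 3041 FPKM in NSCs and at 0 in all STO replicates. For Gatm they were Egln3, a prolyl hydroxylase of hypoxia-inducible factors, at 0.028, Hopx, a homeodomain protein, at 0.052 and Stmn3, a stathmin, at 0.065.

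Other genes around creatine were tested between the cell types with limma over all 12292 genes. At an adjusted p-value under 0.05, STO cells had 41.9% of all genes at a higher and 43.7% at a lower level, 85.6% in all, so a call alone says little. Of 62 listed genes, 61 were matched and 36 were tested, of which 16 were higher, 18 lower and 2 not called.

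Genes of arginine, ornithine, glycine and methyl group metabolism, a list that holds enzymes that make these substrates and enzymes that use them, had more members higher than lower in STO cells. Of the 21, 14 were tested, 11 were higher and 3 lower, with a median difference of 0.55 against -0.023 over all genes. With no filter on low values 19 were tested, again with 11 higher and 3 lower, and the median was 0.31. Ass1, which makes argininosuccinate on the way to arginine, rose most, from 1.64 and 1.83 FPKM in NSCs to 57.8, 61.7 and 61.9 in STO cells. Its difference was 4.49 ± 0.0612 (SE), with an adjusted p-value of 1.17e-08 (limma). Nnmt, which methylates nicotinamide with S-adenosylmethionine, was at 0 in both NSC replicates and at 11.1, 8.71 and 8.64 FPKM in STO cells (limma adjusted p = 4.25e-07). Nnmt passed the filter only through STO cells, which fixed its direction. The other 9 that rose were Slc7a1, Asl, Oat, Odc1, Shmt1, Shmt2, Mat2a, Mat2b and Ahcy, by 0.24 to 1.15 on the log2(FPKM + 1) scale. The 3 that fell were Ahcyl2 (-1.92), Ahcyl1 (-0.83), both related in sequence to S-adenosylhomocysteine hydrolase, and Pemt (-0.71), the methyltransferase of phosphatidylethanolamine. Ahcyl2 went from 32.0 and 31.4 FPKM in NSCs to 7.98, 7.66 and 7.35 in STO cells (SE 0.0548, limma adjusted p = 2.55e-07).

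Porins and adenine nucleotide translocases, which pass nucleotides across the mitochondrial membranes where mitochondrial creatine kinase sits, were lower in STO cells. All 5 that were tested fell, with a median difference of -0.37. Vdac1, the main porin, went from 291 and 272 FPKM in NSCs to 136, 134 and 134 in STO cells, a difference of -1.06 ± 0.0573 (SE, limma adjusted p = 5.36e-06). Slc25a5, a translocase of dividing cells, went from 834 and 936 to 450.2, 424 and 466 FPKM, a difference of -0.98 ± 0.0829 (SE, limma adjusted p = 4.88e-05). Slc25a4, the translocase of heart and muscle, fell by 0.37 (adjusted p = 0.0044), Vdac2 by 0.37 (adjusted p = 0.0014) and Vdac3 by 0.17 (adjusted p = 0.025), all with limma. With quantile normalization 3 of the 5 were called, since Slc25a4 and Vdac3 no longer passed, and with the highest transcript alone Vdac3 was higher in STO cells by 0.46. Vdac3 also missed the threshold without NSC replicate 1 (adjusted p = 0.072, limma), STO replicate 1 (0.090) or STO replicate 2 (0.068).

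Other enzymes that transfer phosphate between nucleotides were split. Of 15, 14 were matched and 11 tested, 4 were higher and 5 lower in STO cells, with a median of -0.051. The higher calls were 2 without NSC replicate 2 and 3 without NSC replicate 1, and the lower calls stayed at 5 in both. Nme4, the mitochondrial nucleoside diphosphate kinase, went from 18.6 and 17.9 FPKM in NSCs to 4.47, 4.44 and 3.84 in STO cells, a difference of -1.88 ± 0.0723 (SE, limma adjusted p = 1.05e-06). Nme7 was at 0 in both NSC replicates and at 11.7, 11.8 and 12.8 FPKM in STO cells (limma adjusted p = 1.89e-08), and its locus overlaps that of Atp1b1. Nme7 passed the filter only through STO cells, which fixed its direction. Ak1, the cytosolic adenylate kinase, was not called, with 54.2 and 50.4 FPKM in NSCs and 51.4, 48.8 and 51.1 in STO cells (limma adjusted p = 0.43), and neither was Nme1 (limma adjusted p = 0.87). With the highest transcript alone Ak1 was lower in STO cells by 0.30 on the log2 scale (limma adjusted p = 0.029), and the list had 3 higher and 6 lower.

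Of the 20 other transporters, 6 were tested, 5 were lower and 1 was higher in STO cells, with a median of -2.29. With no filter on low values 17 were tested, of which 8 were lower and 1 was higher, and the median was -0.030. Slc6a11, Slc6a15 and Slc6a17 passed the filter only through NSCs, which fixed their direction, so the median of -2.29 leans on that filter. Slc6a11, a GABA transporter, stood at 68.0 and 59.9 FPKM in NSCs and at 0 in all STO replicates (limma adjusted p = 6.64e-09). Slc6a17, a vesicular amino acid transporter, stood at 7.01 and 7.52 FPKM in NSCs and at 0.0101, 0 and 0 in STO cells (limma adjusted p = 1.93e-08). Also lower were Slc6a15 and the glycine transporter Slc6a9, the latter of which was no longer called with the highest transcript alone. The transporter that rose was Slc6a6, which carries taurine and is close in sequence to Slc6a8, and it was named after its values were seen. It stood at 24.1 and 25.3 FPKM in NSCs and at 54.1, 54.8 and 47.6 in STO cells, a difference of 1.05 ± 0.0759 (SE, limma adjusted p = 2.28e-05). Slc16a12, a creatine exporter, was not tested, with 0.131 and 0.157 FPKM in NSCs and 0, 0.0200 and 0.00752 in STO cells.

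**Figure D4:**
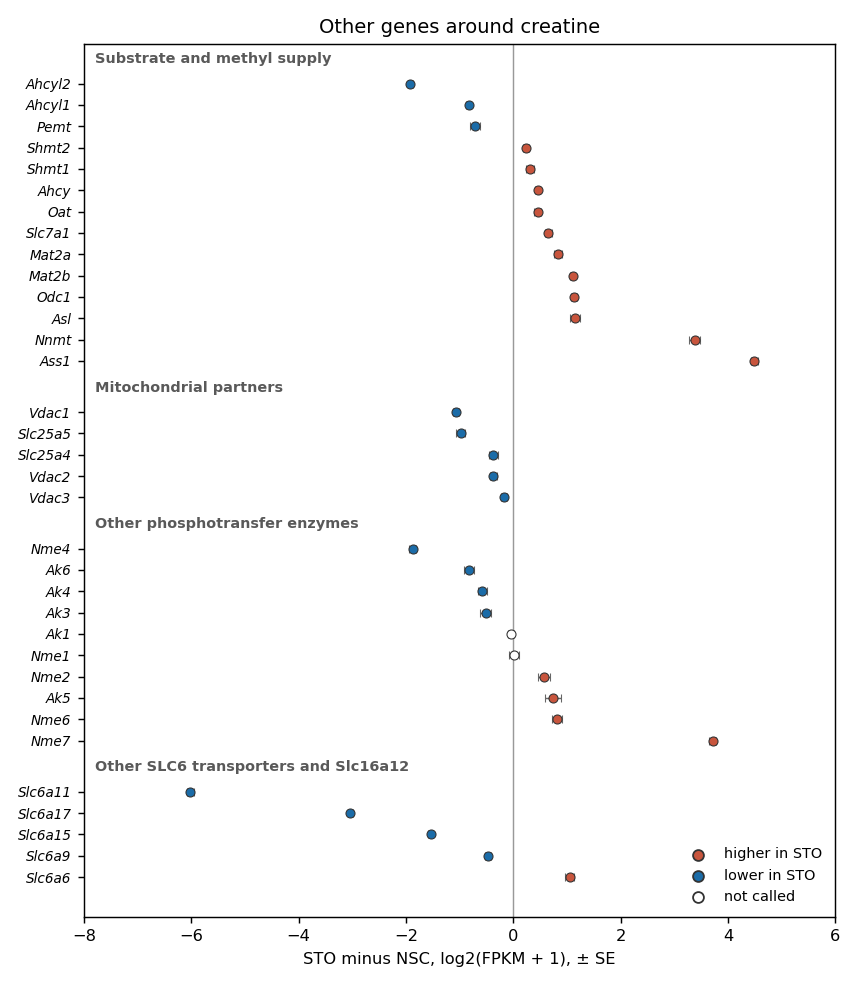
Difference between STO cells and NSCs in log2(FPKM + 1), with its standard error, for tested genes of the 4 lists, most of the 36; red points were higher and blue points lower in STO cells at a limma adjusted p-value under 0.05, and white points were not called. In the substrate list, 11 genes lie to the right, from 0.24 to 4.49, all 5 mitochondrial partners lie to the left, and Slc6a6 is the only other transporter to the right.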

How the data were processed

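Total RNA of 2 NSC and 3 STO samples was made into stranded mRNA libraries and read as paired ends. Per the paper's methods, the authors aligned the reads to mm9 with Hisat2 (version 4.8.2 as given in their processing notes) and estimated expression with Cufflinks 2.2.1 on RefSeq. The authors deposited FPKM values with confidence bounds for 40201 transcripts per sample; depth was divided out, and the strand setting is not given in the sources used here. Transcripts were named through a RefSeq table of GRCm38.p6 (99.4% matched), and FPKM was summed over the transcripts of a symbol whose loci overlapped. Coordinates of genes are those of the files in mm9, and promoters are from RefSeq on GRCm38.p6. Fragments behind a value were inferred from the bounds as Poisson counts, with 2 standard deviations from value to upper bound. They cover counting error only and are not read counts. Of transcripts with few implied fragments, 46.8% to 53.2% per sample lay within 0.05 of a whole number, so the Poisson reading was not exact for the rest.

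Genes with a mean of at least 1 FPKM in either cell type were compared with limma 3.58.1 (trend) in R 4.3.3 on log2(FPKM + 1), which understates changes of low genes, with Benjamini-Hochberg adjustment over 12292 genes. The fit was tested on simulated data. As no label says that replicates came from separate cultures, p-values measure only the spread between these samples, which may be technical. The 7 genes, the lists of other genes and the markers were chosen with earlier results of these data known. Named among the other genes were, per list, the 3 with the largest difference among called genes without overlap, less some that are not reported here, and Slc16a12 for its role; other names (Ahcyl1, Pemt, Vdac2, Vdac3, Ak1, Nme1, Slc6a6, Slc6a9, Slc6a15 and the 9 substrate genes given with their range) complete a count and were chosen after their values were seen. Coding sequences were aligned with Biopython 1.88. Alternatives changed the pseudocount, the filter, the normalization, the trend, the transcripts, the fold threshold, the replicate block and the replicates.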

Additional observations from a re-analysis of the deposited data

How the results depend on the processing

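Among the 7 creatine genes, the counts of 4 with NSCs higher and 1 with STO cells higher held with quantile normalization and with scaling to the upper quartile. The other runs could not undo these counts, so they are no support for them. A pseudocount of 0.1 keeps the order of the samples within a gene. All FPKM of each gene sat on a single transcript, so the highest transcript alone gave the same values. Leaving out any 1 replicate cannot make separate ranges overlap. The differences of Ckb, Ckmt1, Gatm, Gamt and Slc6a8 kept their sign in every run. Their ranges did not overlap, so only the normalizations could have changed a sign. Scaling could not change it for Ckmt1 or Gatm, which were at 0 in all STO replicates. The small difference of Ckm was 0 without STO replicate 3, and that of Ckmt2, at 0 in all samples, has no sign. The pseudocount of 0.1 gave -12.74 for Ckb, -9.57 for Gatm and -6.56 for Ckmt1. Scaling to the upper quartile moved the median of all genes from -0.023 to -0.13, and gave -0.75 for Gamt and 0.87 for Slc6a8. Among the other genes, an absolute log2 difference of at least 1 left 7 higher and 8 lower in STO cells, and 2103 higher and 2617 lower over all genes. By list this was 5 and 1 for substrates, 0 and 1 for mitochondrial partners, 1 and 2 for phosphotransfer enzymes, and 1 and 4 for transporters. Leaving out any 1 replicate gave 13 to 16 higher and 17 to 18 lower. With 1 NSC replicate left, its spread was taken from the STO replicates. With the replicate number as a block, 16 were higher and 17 lower, and 4994 and 5252 over all genes. Nothing in the labels pairs the samples, and same-numbered samples deviated with correlations of 0.0075 and 0.061. Vdac3 was -0.20 with the block (limma adjusted p = 0.056) and 0.46 with the highest transcript alone. Nme1, never called, changed sign with upper quartile scaling (-0.098) and with the block (-0.024), and ranged from -0.049 to 0.095 without 1 replicate; Ak1 ranged from -0.10 to 0.00018 without 1 replicate, was -0.16 with upper quartile scaling, and was called with the highest transcript alone (-0.30, limma adjusted p = 0.029). No cause was tested for these changes. Values of 0 and the STO values of Ckb are limited by depth.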
